A study of Anas platyrhynchos with 12 samples.

Results

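Skeletal myosin heavy chain is the motor of the muscle thick filament, and duck breast muscle carries its message from several gene models. The members described here are the 8 gene models, of 16433 in the deposited table, whose NCBI gene numbers belong to skeletal myosin heavy chains named MYH1, MYH1B, MYH4 or MYH8 in duck annotation. They were chosen by gene number and not by their values, but with earlier results of these data known. The study sequenced RNA of breast muscle from ducks (Anas platyrhynchos) of an F2 population at 42 days of age, kept under shared conditions with free access to food and water. By their labels, 6 samples are from birds whose breast muscle ratio was high (HB) and 6 from birds whose ratio was low (LB). No genotype, sex, batch or treatment is given, and no label says that each sample is a bird of its own, so p-values cover the spread between samples, which may be technical. Libraries are called by the group and number in their column names, from HB-1 to LB-6, and these numbers pair nothing.

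A muscle myosin holds a pair of heavy chains, each with a head that splits ATP and pulls on actin and a long tail that packs into the thick filament, with light chains at the neck of each head. Fast skeletal heavy chains are encoded by a cluster of neighbouring genes. In chicken, the cluster's genes are used in turn by embryonic, neonatal and adult fast fibres, while slow fibres use heavy chains from other loci. Breast muscle of flying birds consists almost wholly of fast fibres. The similarity of the members in sequence was not computed here. Reads may be split between similar models, so each value below belongs to a model and not with certainty to a separate gene.

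Library totals lay between 24090771 and 42503751 counts. The labelled tissue was checked against fibre markers, and ACTA1, TNNC2, TNNI2, TNNT3 and MB, the 5 matched of 10 muscle fibre markers, were present in every library with a summed level of 40803 to 76667 FPKM (counts scaled by model length and library total). Library HB-4 went against its label in genes that mark the position of a limb muscle. TBX5, a transcription factor of the forelimb, had 0 counts in HB-4, which allows up to 0.0397 FPKM, and 0.193 to 0.956 FPKM in the other libraries. The hindlimb factors TBX4 and PITX1 had 1.59 and 3.54 FPKM in HB-4, against at most 0.0313 and 0.737 FPKM elsewhere. HOXC10, a homeobox gene of the hindlimb and posterior trunk, had 1619 counts (27.1 FPKM) in HB-4 and 0 counts in the other 11 libraries. HOXC9 had 6.86 FPKM in HB-4 and at most 0.0863 FPKM elsewhere. LB-1 had the second highest PITX1 level (0.737 FPKM) and, of the libraries with counts, the lowest TBX5 level (0.193 FPKM). It had 0 counts of TBX4, HOXC9 and HOXC10, unlike HB-4. These limb genes were chosen after their values were seen, and the origin of the HB-4 tissue was not tested. Results are therefore given with and without HB-4, and with and without LB-1 where it decides a value.

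**Figure D1:**
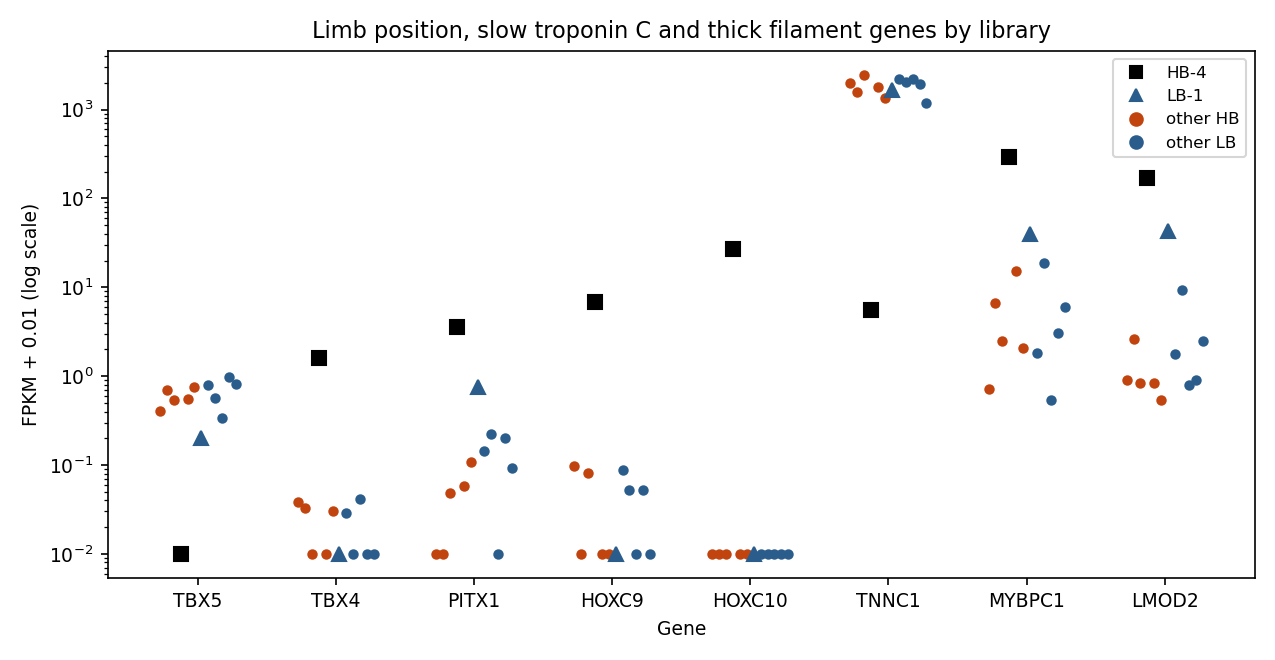
FPKM plus 0.01 on a log axis for limb position genes, TNNC1, MYBPC1 and LMOD2, with 1 point per library. HB-4 (black square) has 0 counts of TBX5 and 5.56 FPKM of TNNC1 where the others have 1186 to 2468, and it is highest for TBX4, PITX1, HOXC9, HOXC10, MYBPC1 and LMOD2.

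Of the 8 models, 3 carry the symbol MYH1B in the files (ncbi_101796474, ncbi_110353953 and ncbi_101801969) and 3 carry Myh8 (ncbi_101802165, ncbi_113842028 and ncbi_101790909). The others are a MYH1 model (ncbi_113839637) and a MYH4 model (ncbi_113841271). A RefSeq gene table (assembly GCF_047663525.1) held 4 of the 8 numbers, all as unnamed loci on the same chromosome. In their order along it they are ncbi_101790909, ncbi_110353953, ncbi_101796474 and ncbi_101802165, and the only other protein-coding locus between them is ncbi_101802071, a MYH1B model outside the list. SCO1, which encodes a copper chaperone of cytochrome c oxidase, is the neighbour of ncbi_101790909 on the outer side. That assembly may not be the one used for alignment, so no coordinates are given, and the other 4 numbers were not placed. The lengths implied by the authors' deposited mean FPKM were 6022, 6014, 6023 and 6169 bases for ncbi_101802165, ncbi_113842028, ncbi_110353953 and ncbi_101790909, and 5962 bases for ncbi_101801969. The MYH1B model ncbi_101796474 had 5139 bases, the MYH1 model ncbi_113839637 3693 bases and the MYH4 model ncbi_113841271 only 497 bases, so these models are shorter than the others.

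Within the 8 listed models, the heavy chain message came mostly from 4, and the HB and LB groups overlapped for each of them. These models, MYH1B ncbi_101796474, Myh8 ncbi_113842028, MYH1 ncbi_113839637 and Myh8 ncbi_101802165, held 82.0% to 99.4% of the summed FPKM of the 8 models, with a median of 98.4% over the 12 libraries. HB-4 was lowest, and LB-1 was next with 85.4%, while the other libraries lay at 95.2% or above. Counts of the 8 models together made up 2.17% to 3.82% of a library, with 3.15 ± 0.362% in HB and 2.86 ± 0.664% in LB (SD, n = 6). With the reads of the 8 models summed into 1 feature, the log2 difference between HB and LB was 0.18, and leaving out single libraries moved it from 0.09 to 0.30.

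**Figure D2:**
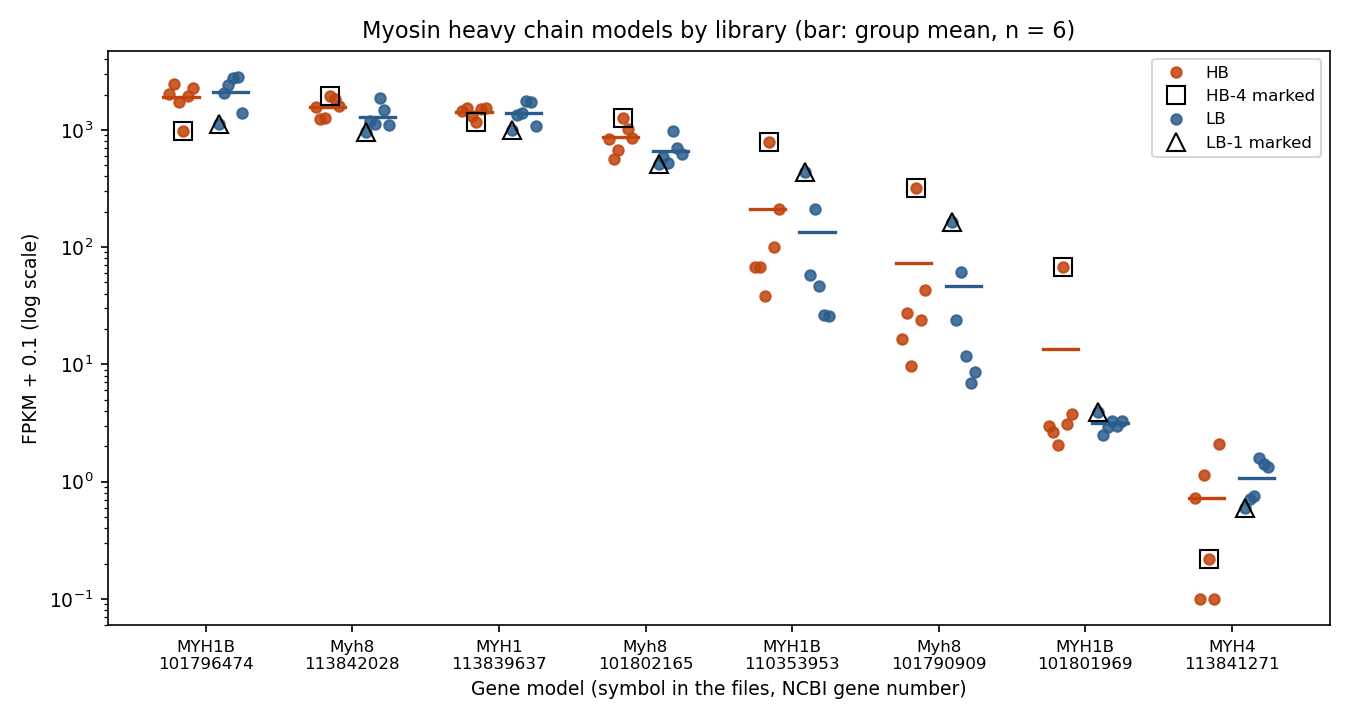
FPKM plus 0.1 of each model on a log axis, with 1 point per library, HB left and LB right of each position, and a bar at the group mean (n = 6). The first 4 models lie between 516 and 2830 FPKM, while HB-4 (square) and LB-1 (triangle) are highest for ncbi_110353953 and ncbi_101790909.

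The MYH1B model ncbi_101796474, which resembles an adult skeletal heavy chain of other birds in the authors' annotation, had the highest level in 11 of 12 libraries. Its FPKM was 972 at the lowest, 1981 at the median and 2450 at the highest in HB, and 1112, 2248 and 2830 in LB. The exception was HB-4, which held the lowest value of all, and LB-1 held the lowest in LB. Its mean was 1899 ± 522 FPKM over the HB and 2098 ± 716 FPKM over the LB libraries (SD, n = 6). The log2 difference was -0.11 ± 0.26 (SE, 95% interval -0.66 to 0.45), with an adjusted p in edgeR of 0.991. Without HB-4 it was 0.03.

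The MYH1 model ncbi_113839637 varied least of the 8 over the 12 libraries, but not within LB. It had 1171, 1465 and 1546 FPKM at the lowest, median and highest among the HB libraries and 988, 1361 and 1762 FPKM in LB, so the HB values lay inside the LB range. Its SD of log2 CPM (counts scaled by library totals with TMM scaling) over the 12 libraries was 0.26. The median over all tested models was 0.31. Within LB its SD was 0.35, above the median of 0.27 and the 0.31 of ncbi_101801969. Within HB it was 0.14 (median 0.32), and without HB-4 it was 0.27 (median 0.28). The log2 difference was 0.08 ± 0.16 (95% interval -0.26 to 0.42, adjusted p 0.989 in edgeR). This interval is the narrowest of the 8 and corresponds to 0.834 to 1.34 times the LB level. Without HB-4 the log2 difference was 0.13.

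The Myh8 model ncbi_113842028, annotated after the heavy chain MyHC1 of goose, had 1240, 1582 and 1950 FPKM at the lowest, median and highest in HB. In LB it had 950, 1156 and 1857 FPKM. Only HB-4 lay above every LB library. Its level did not stand apart from that of ncbi_113839637, which it exceeded in 6 of 12 libraries. The log2 difference was 0.34 ± 0.20 (95% interval -0.09 to 0.76, adjusted p 0.977 in edgeR), and 0.26 without HB-4.

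The Myh8 model ncbi_101802165, also annotated after goose MyHC1, was the lowest of the 4 in 11 of 12 libraries and the second highest in HB-4. It had 569, 842 and 1262 FPKM at the lowest, median and highest among the HB libraries and 516, 602 and 984 FPKM in LB. The highest HB values belonged to HB-4 (1262 FPKM) and HB-5 (1015 FPKM), which lay above every LB library. Of the 4 abundant models it had the largest difference, with a log2 value of 0.45 ± 0.23 (95% interval -0.04 to 0.95, unadjusted p 0.071 and adjusted p 0.977 in edgeR). That is 1.37 times the LB level, with an interval from 0.970 to 1.93 times. The log2 difference was 0.31 without HB-4 and 0.63 without LB-4, the LB library with the highest level.

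**Figure D3:**
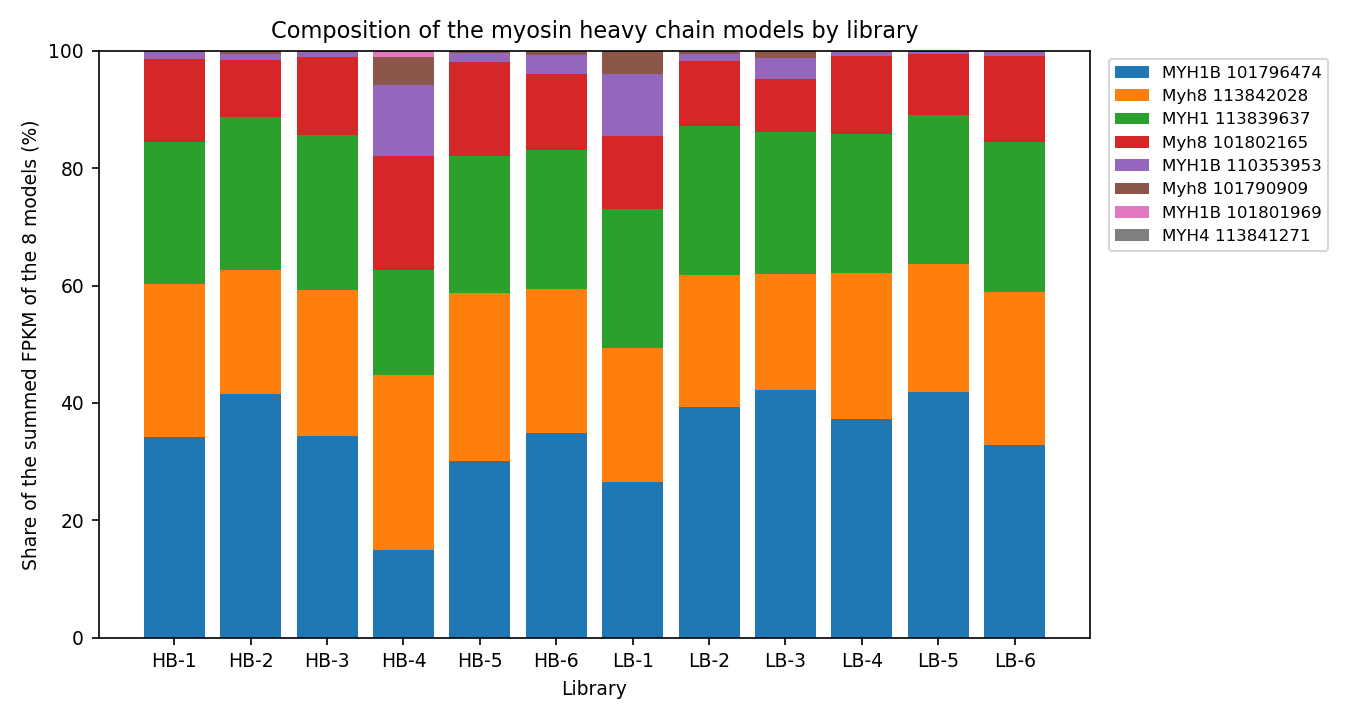
Share of each model in the summed FPKM of the 8 models, as stacked bars from 0 to 100% with 1 bar per library. The MYH1B model ncbi_101796474 (bottom) takes 26.6% to 42.2% in 11 libraries and 14.9% in HB-4, where ncbi_110353953 takes 12.1%.

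The makeup of the heavy chain message differed most in HB-4 and LB-1. In HB-4 the largest share of the summed FPKM belonged to ncbi_113842028, at 29.9%, followed by ncbi_101802165 at 19.3%. In every other library ncbi_101796474 led, with 26.6% in LB-1 and 30.2% to 42.2% in the remaining 10. The MYH1B model ncbi_110353953 took 12.1% in HB-4 and 10.5% in LB-1, and at most 3.66% in the others. The share of ncbi_101796474 averaged 31.7 ± 9.01% over HB and 36.7 ± 6.01% over LB libraries (SD, n = 6), and 35.0 ± 4.11% over HB without HB-4 (n = 5).

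The MYH1B model ncbi_110353953 and the Myh8 model ncbi_101790909 had the largest SD of log2 CPM over the 12 libraries among the 8 models, and they varied together. In the authors' annotation the first resembles heavy chain 1C of chicken and the second an adult-like heavy chain of quail. The model ncbi_110353953 had 37.8, 84.4 and 793 FPKM at the lowest, median and highest among the HB libraries and 25.6, 52.0 and 439 FPKM in LB. HB-4 was highest with 793 FPKM, LB-1 followed with 439, HB-6 with 212 and LB-3 with 210, and the other 8 libraries lay between 25.6 and 101. High and low libraries thus occurred in both groups. The model ncbi_101790909 had 9.60, 25.4 and 316 FPKM among the HB libraries and 6.78, 17.6 and 165 FPKM in LB. Its highest libraries were the same, with HB-4 at 316, LB-1 at 165, LB-3 at 60.7 and HB-6 at 43.3 FPKM.

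On the log2 CPM scale these levels spanned 5.16 and 5.67 units, where the median range over all tested models was 1.06. The SD of log2 CPM was 1.64 for ncbi_110353953 and 1.76 for ncbi_101790909, and still 1.11 and 1.05 without HB-4 and LB-1 (median over all tested models 0.28). Without these libraries the MYH4 model ncbi_113841271, at a few counts, had the largest SD, at 1.48. Over 12 libraries the log2 CPM values of the pair correlated with Pearson r = 0.98 and Spearman rho = 0.96, and with r = 0.95 over the 10 libraries left when HB-4 and LB-1 were taken out. The ratio of their FPKM lay between 2.43 and 4.91, so ncbi_101790909 followed ncbi_110353953 at a lower level. These points share libraries and scaling, the models are neighbours in the reference assembly, and shared reads between them were not tested.

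The pair did not separate the groups. The log2 difference of ncbi_110353953 was 0.65 ± 0.90 (95% interval -1.28 to 2.58, adjusted p 0.983 in edgeR), and it became -0.52 without HB-4 and 1.62 without LB-1. That of ncbi_101790909 was 0.63 ± 1.00 (95% interval -1.52 to 2.79, adjusted p 0.986 in edgeR), with -1.01 without HB-4 and 1.80 without LB-1. Without both libraries the values were 0.46 and 0.16. The direction of the difference thus turned only where HB-4 was left out and LB-1 was kept.

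**Figure D4:**
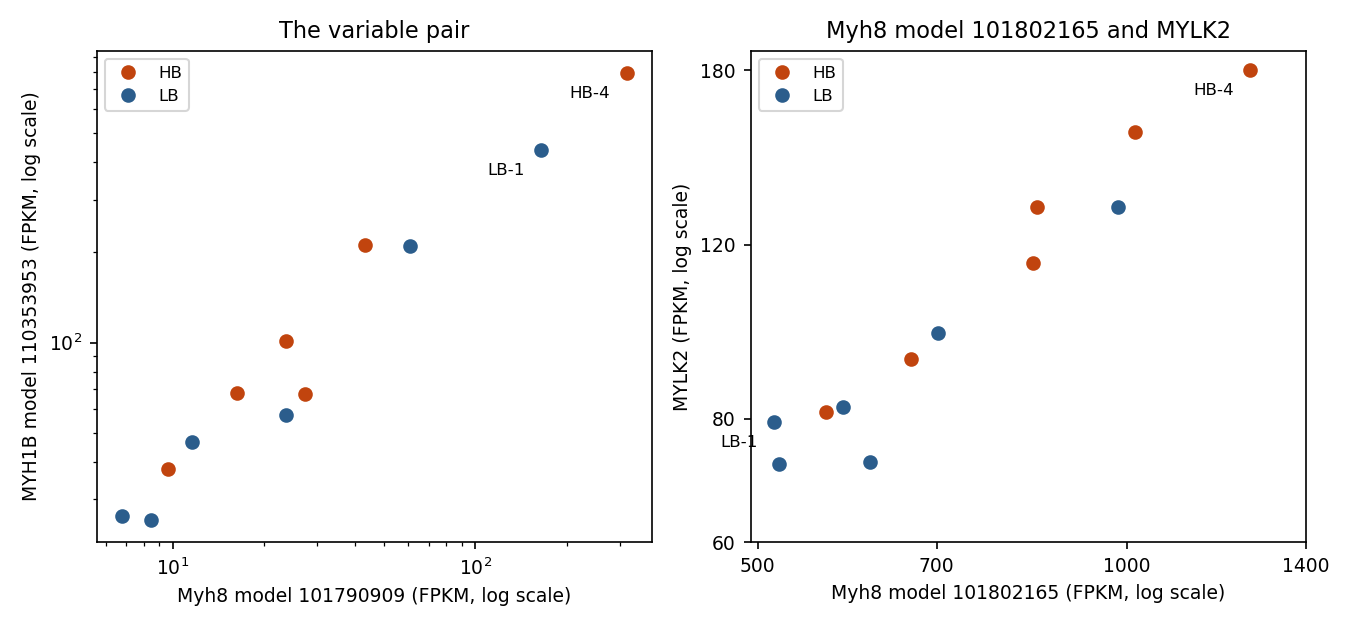
FPKM of ncbi_110353953 against ncbi_101790909 (left) and of MYLK2 against ncbi_101802165 (right) on log axes, with 1 point per library. In both panels HB-4 is the highest point, and the remaining libraries follow the same line (r = 0.97 without HB-4 in each, on log2 CPM).

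The MYH1B model ncbi_101801969, annotated as an adult-like heavy chain, was high in HB-4 alone. HB-4 held 67.1 FPKM (13351 counts) of it, while the other 11 libraries held 1.94 to 3.80 FPKM and overlapped between the groups. Its log2 difference of 2.22 ± 0.88 (95% interval 0.32 to 4.12, unadjusted p 0.0255, adjusted p 0.977 in edgeR) became -0.09 without HB-4. DESeq2 gave this model no p-value, and the authors' deposited table lists a p of 1 for it. Without HB-4 the HB mean was 2.80 ± 0.626 FPKM (SD, n = 5), beside an LB mean of 3.04 ± 0.479 FPKM (SD, n = 6).

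The MYH4 model ncbi_113841271, the shortest, was at the edge of detection. In the authors' annotation it resembles myosin-7 of chicken, which differs from its symbol, so its identity is uncertain. It had 0 to 37 counts per library, or 0, 0.372 and 1.98 FPKM at the lowest, median and highest among the HB libraries and 0.501, 0.937 and 1.50 FPKM in LB. HB-2 and HB-5 had 0 counts, which allows up to 0.182 and 0.178 FPKM, and HB-4 had 2 counts with a 95% Poisson interval of 0.242 to 7.22 that covers counting error only. The log2 difference was -0.57 ± 0.82 (95% interval -2.34 to 1.19, adjusted p 0.985 in edgeR), and -0.36 without HB-4. Its counts differed between libraries by more than counting error, with 37 counts in HB-6 (95% Poisson interval 26.1 to 51.0) and 0 in HB-2 (up to 3.69).

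Together, 6 of the 8 models had positive log2 differences and 2 negative ones. Their median was 0.39, where that over the 12577 tested models was -0.0003. Without HB-4, 4 were positive and the median was -0.03. Without HB-4 and LB-1 together, 6 were positive again. In edgeR 0 of the 8 had an adjusted p under 0.05, where 0% of all tested models had one. An unadjusted p under 0.05 was found for 1 of the 8, ncbi_101801969, against 4.60% of all tested models, and 2.34% with a positive difference. DESeq2 and the authors' deposited table each gave ncbi_101802165 an unadjusted p of 0.0484, where edgeR gave 0.071. DESeq2 called 0 of the 8 and 0.00668% of 14981 models, but it gave ncbi_101801969 no p-value and so could not call it. Groups overlapped for every member, and 0.159% of all tested models had groups that did not overlap. In the authors' deposited table the adjusted p of the 8 models lay at 0.9996 or 1.

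**Figure D5:**
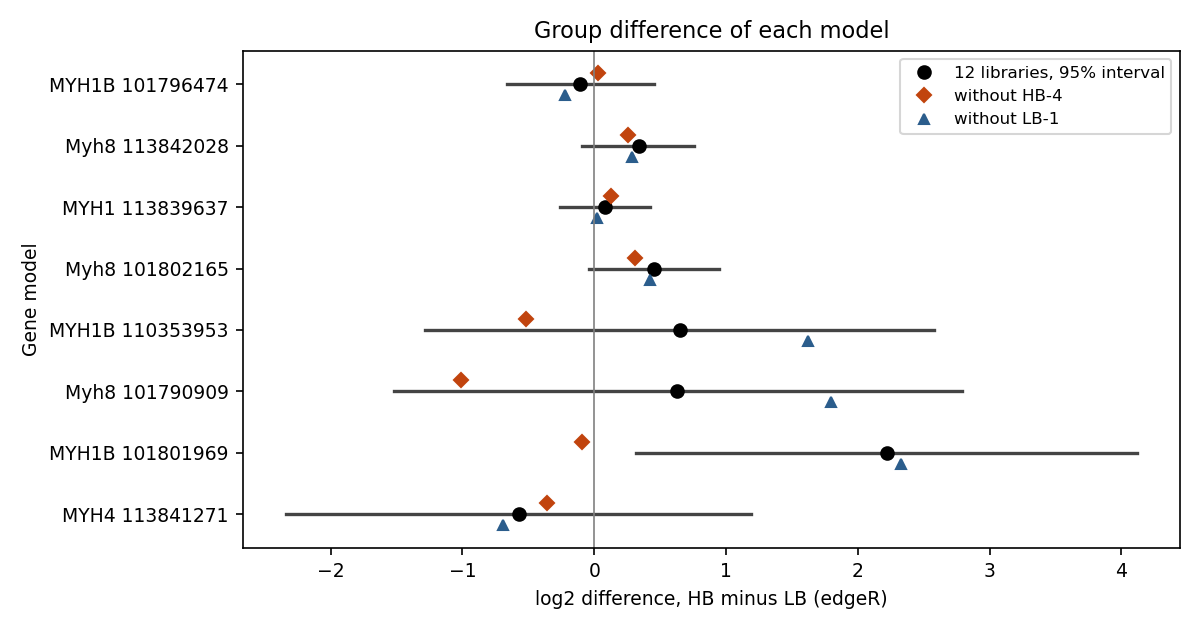
Difference between HB and LB per model in log2 units from edgeR, with 95% intervals (12 libraries), and the values without HB-4 and without LB-1. The values of ncbi_110353953, ncbi_101790909 and ncbi_101801969 cross 0 when HB-4 is left out, and ncbi_101796474 moves from -0.11 to 0.03.

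The abundant models varied together to different degrees. Over 12 libraries the Myh8 models ncbi_101802165 and ncbi_113842028 correlated with Pearson r = 0.96 (0.96 without HB-4) and Spearman rho = 0.88. Their FPKM ratio lay between 1.54 and 2.18. The models ncbi_101796474 and ncbi_113839637 correlated with r = 0.84 (0.92 without HB-4) and rho = 0.90. HB-4 was the 1 library in which ncbi_101796474 was lower than ncbi_113839637 per length, with a ratio of 0.830 against 1.13 to 1.75 elsewhere. Other combinations of the 4 models depended more on HB-4. The models ncbi_113842028 and ncbi_113839637 had r = 0.64 with it and 0.85 without it, and ncbi_113842028 and ncbi_101796474 had r = 0.16 with it and 0.62 without it. For ncbi_101802165, r was 0.42 with ncbi_113839637 and -0.09 with ncbi_101796474, and 0.68 and 0.40 without HB-4. The variable pair had negative r with ncbi_101796474 (-0.47 for ncbi_110353953 and -0.54 for ncbi_101790909), which went to 0.32 and 0.26 without HB-4 and LB-1. All of these are descriptions over 12 libraries, and models that share reads or a large part of the library total are not independent.

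The gene most like the Myh8 model ncbi_101802165 among 9943 named models was MYLK2, the skeletal muscle kinase of the myosin regulatory light chain. Their log2 CPM values correlated with r = 0.98 over 12 libraries and 0.97 without HB-4. MYLK2 had 81.3, 123 and 180 FPKM at the lowest, median and highest among the HB libraries and 72.0, 80.8 and 131 FPKM in LB. Its log2 difference was 0.54 ± 0.23 (95% interval 0.04 to 1.05, unadjusted p 0.0364, adjusted p 0.977 in edgeR) and 0.41 without HB-4. The next genes for ncbi_101802165 were ncbi_113842028 itself and CAND1, a regulator of cullin ubiquitin ligases (r = 0.96 each). For ncbi_113842028 they were ncbi_101802165 and MYLK2 (r = 0.96 each) and the ubiquitin ligase ARIH2 (r = 0.93).

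For the variable pair, each model was the most like the other. After it came CENPV (r = 0.91) and EMILIN2, a glycoprotein of elastic fibres (r = 0.91), for ncbi_110353953, and EMILIN2 (r = 0.93) and SMPX, a small protein of striated muscle attachment sites (r = 0.91), for ncbi_101790909. Without HB-4 these values were 0.85 for CENPV and 0.85 for EMILIN2, and for ncbi_101790909 they were 0.87 for EMILIN2 and 0.86 for SMPX. For ncbi_113839637 the 3 were VPS33B, a vesicle sorting protein (r = 0.86), ncbi_101796474 (0.84) and AGA, a lysosomal enzyme (0.83). Without LB-6, the library farthest from its median, these values were 0.84, 0.83 and 0.74. For ncbi_101796474 the 3 were TMEM131L, BRAT1 and RNF138, with r from 0.85 to 0.86, and 0.80, 0.77 and 0.83 without HB-4. For the low MYH4 model the 3 were BTBD6, SPSB4 and RIOK2, with r from 0.80 to 0.83, and 0.89, 0.89 and 0.82 without HB-2. For ncbi_101801969 they were DPP8, MYC and SLC2A3 (r from 0.96 to 0.97), and these fell by leaving out HB-4 to 0.77, 0.58 and 0.60. MYC, a transcription factor of growth, reached 43.2 FPKM in HB-4 and did not exceed 5.94 FPKM elsewhere. All genes named by likeness are the highest of 9943 or 9944 correlations over 12 libraries, so their r is raised by the choice.

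The other genes listed for the thick filament and its assembly were not called either. The list also holds LMOD2 and LMOD3, leiomodins of the thin filament. Of 45 symbols, 33 matched a model and 28 of these passed the filter, while MYH3, MYH15, MYLPF, MYL2 and MYBPC2 were among the 12 symbols not analysed here. Log2 differences were positive for 20 (71.4%, against 49.9% of all tested models) and negative for 8, with a median of 0.09. In edgeR 0 had an adjusted p under 0.05 and 4 of the 28 had an unadjusted p under 0.05 (4.60% of all tested models), of which LMOD3, MYLK2 and OBSL1 were positive and MYL4 negative. LMOD3 and OBSL1 were named after their values were seen, with log2 differences of 0.71 ± 0.21 and 0.85 ± 0.37 that were 0.50 and 0.28 without HB-4. Without HB-4, 12 of the 28 were positive, with a median of -0.01. MYL1, the alkali light chain of fast fibres, averaged 13211 ± 1503 FPKM among HB libraries and 12754 ± 2009 FPKM among LB libraries (SD, n = 6). MYL4, an embryonic and atrial light chain, averaged 0.384 ± 0.253 FPKM among HB libraries and 1.08 ± 0.637 FPKM among LB libraries. Its log2 difference was -1.42 ± 0.55 (unadjusted p 0.0226, adjusted p 0.977 in edgeR), and -1.18 without HB-4, its lowest library. MYL4 rests on few counts, from 2 in HB-4 to 98 in LB-6.

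The models matched to the slow heavy chain genes MYH7 and MYH7B were near 0 in all libraries, with at most 16 and 51 counts. Whether these models cover whole genes was not checked, so the low values do not show that slow heavy chain message was absent. MYH7, the heavy chain of slow and cardiac muscle in mammals, had at most 0.570 FPKM, MYH7B at most 0.285 FPKM and MYL3, a light chain of slow and cardiac muscle, at most 0.301 FPKM. MYBPH, a myosin-binding protein, averaged 184 ± 106 FPKM among HB and 280 ± 88.4 FPKM among LB libraries. Its log2 difference of -0.58 ± 0.35 had an adjusted p of 0.977 in edgeR, and was -0.42 without HB-4. SMYD1, a methyltransferase needed for thick filament assembly, averaged 67.1 ± 21.6 FPKM among HB and 63.4 ± 15.2 FPKM among LB libraries. Without HB-4, its highest library, the HB mean was 62.0 ± 19.6 FPKM (SD, n = 5). The log2 difference of SMYD1 went from 0.10 to -0.02 without HB-4. UNC45B, a chaperone that folds the myosin head, reached 150 FPKM in HB-4, above the 34.8 to 66.8 FPKM of the other 11 libraries, and its log2 difference went from 0.43 to -0.01 without HB-4.

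MYBPC1, the slow isoform of myosin-binding protein C, was high in some of the libraries where the variable pair was high. It had 293 FPKM in HB-4, 40.0 in LB-1, 18.8 in LB-3 and 15.4 in HB-5, and 0.523 to 6.60 FPKM in the other 8 libraries. HB-6, among the 4 highest libraries of the pair, had only 2.08 FPKM of MYBPC1, and HB-5 was not among those 4. Its log2 difference of 2.20 ± 1.44 (adjusted p 0.977 in edgeR) became -1.10 without HB-4. LMOD2, a leiomodin that controls thin filament length, was chosen after its values were seen. It had 171 FPKM in HB-4, 43.1 in LB-1, 9.24 in LB-3 and at most 2.60 FPKM in the other 9 libraries.

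Some markers of other fibre states and cells also stood apart in HB-4, and their part in the myosin values was not tested. The 7 matched of 9 slow fibre markers summed to 906 FPKM in HB-4, below the 2308 to 3207 FPKM of the other libraries. TNNC1, the troponin C of slow and cardiac muscle, set this gap, since HB-4 held 5.56 FPKM of it and every other library 1186 to 2468 FPKM. Most of the sum in HB-4 was CASQ2, at 886 FPKM, inside the 603 to 1097 FPKM of the other libraries. TNNI1 in HB-4 also lay inside the range of the others, and ATP2A2 was highest there. MYH7, MYH7B and MYL3 were near 0 in all libraries. The low sum thus reflects TNNC1 and not the slow fibre markers as a set. The 8 matched of 11 markers of developing or regenerating fibres summed to 125 FPKM in HB-4 and 456 FPKM in LB-1, within 116 to 456 over the 12 libraries, and HB-4 was lowest for 4 of the 8 (MYL4, MYMK, MYOG and MYBPH). Among them ACTC1, the cardiac alpha-actin of early muscle, had 203 FPKM in LB-1 and at most 66.1 FPKM elsewhere. HB-4 was highest for 6 of 6 immediate early genes, whose sum was 2799 FPKM there and 123 to 725 FPKM in the others, and lowest for 4 of 5 endothelial genes, whose sum was 131 FPKM there and 177 to 373 FPKM in the others. It was highest for 3 of 4 adipocyte genes and for 2 of 4 macrophage genes, with sums of 538 and 54.1 FPKM inside the ranges of the others. Heart markers summed to 1.40 to 24.0 FPKM. Among them the heavy chain gene MYH6 had 0 FPKM in HB-4, 0.149 FPKM in LB-1 and 0.317 to 16.9 FPKM in the other libraries. Smooth muscle genes summed to 304 FPKM in HB-4, highest there for 2 of the 3 matched, and to 142 to 279 FPKM in the other libraries. The sums of fibroblast (542 to 1343), erythrocyte (2582 to 7259) and Schwann cell genes (11.6 to 43.7 FPKM) overlapped between HB and LB. In whole muscle, fewer cells of a type and less RNA per cell cannot be told apart.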

How the data were processed

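Counts per gene model for 12 libraries were deposited by the authors as raw whole numbers, and the deposited group means are in FPKM, and the authors' comparison gives a log2 ratio and an adjusted p-value for each model. Per the submitters' processing notes, fastp 0.18.0, HISAT2, StringTie 1.3.1 and DESeq2 were used. The build, the annotation, the strand setting and the treatment of reads that match several models are not stated in the sources used here. A further 12 columns of per-library values were not used. FPKM per library was computed from counts, totals and the model length implied by the deposited means, which differed between groups by at most 0.465% over 10188 genes. Symbols came from RefSeq or, where it names none, from the files. The table held 0 rows that name no gene.

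HB and LB were compared in edgeR 4.0.16 (R 4.3.3) by its quasi-likelihood test, with TMM scaling, filterByExpr and Benjamini-Hochberg adjustment over 12577 models. The SE is the absolute log2 difference over the square root of F, and the 95% interval uses the t distribution with the fit's degrees of freedom. The procedure was tested on simulated counts. Correlations and SDs of log2 CPM used TMM scaling and a prior count of 2. Alternatives used DESeq2 1.42.0, limma 3.58.1, other scalings, no filter, and each library left out. The removal of HB-4 and LB-1 together was added after the data were seen. The members and gene lists were chosen with earlier results of these data known. All 8 models are named, with the 3 named models of at least 1 mean FPKM most correlated with each, and 15 listed thick filament genes where matched. LMOD2 and the limb genes were added after their values were seen.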

Additional observations from a re-analysis of the deposited data

Results flagged for a closer look

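In groups of 6 libraries, a value was singled out where its gap to the nearest other library exceeded Dixon's 95% critical share of the group's range. Of 96 group values of 48 genes named here, 31 were singled out, 23 of them on HB-4. Chance singles out about 1 in 20 independent groups, but many of these genes were chosen for their likeness to models that are high in HB-4 or after their values were seen, so the counts cannot be read against that rate. Among the members, HB-4 was high for ncbi_110353953 (793 FPKM), ncbi_101790909 (316) and ncbi_101801969 (67.1), and LB-1 for ncbi_101790909 (165 FPKM, with 6.78 to 60.7 in the other LB libraries). Among the genes of the thick filament list, HB-4 was high for MYBPC1 (293 FPKM), UNC45B (150), OBSL1 (13.8) and the thin filament leiomodins LMOD2 (171) and LMOD3 (71.9). LB-1 was high for LMOD2 (43.1), and LB-3 for MYH7 (0.570 FPKM, 16 counts). Among the genes most like a member, HB-4 was high for EMILIN2 (33.9 FPKM), SMPX (118), DPP8 (11.4), MYC (43.2) and SLC2A3 (72.8). It was low for VPS33B, with 29.5 FPKM against 35.2 to 37.5 in the other HB libraries, and for TMEM131L, with 5.10 FPKM against 7.82 to 8.88. Among the limb and marker genes, HB-4 was high for TBX4 (1.59 FPKM), PITX1 (3.54), HOXC9 (6.86) and HOXC10 (27.1), and LB-1 for PITX1 (0.737) and ACTC1 (203 FPKM). Of the MYH1B models outside the list, ncbi_101802071 was high in HB-4 (257 FPKM) and LB-1 (220). The models ncbi_113840658, ncbi_113840831 and ncbi_113840832 were high in HB-4 (52.8, 52.0 and 32.4 FPKM), and the last 2 also in LB-4 (0.919) and LB-3 (1.25 FPKM).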

How the results depend on the processing

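In edgeR 0 models were called, with 579 at an unadjusted p under 0.05, and DESeq2 called 1, which is none of the 8. The 72 member values under the 9 settings other than the removal of 1 library all kept their direction. These settings include the removal of HB-4 and LB-1 together. None of the values was called, though DESeq2 gave ncbi_101801969 no p-value, and sizes moved. With sample weights in limma voom, ncbi_101801969 went from 2.22 to 0.15, ncbi_101790909 from 0.63 to 0.08, ncbi_110353953 from 0.65 to 0.28 and ncbi_113841271 from -0.57 to -1.57. With limma on log2(FPKM + 1), ncbi_101801969 was 0.60 and ncbi_113841271 -0.37, and with a pseudocount of 0.1 they were 0.63 and -1.33. The cause was not tested. Leaving out 1 library kept the direction in 91 of 96 member values. The exceptions were ncbi_110353953 (-0.52 to 1.62), ncbi_101790909 (-1.01 to 1.80), ncbi_101801969 (-0.09 to 2.45) and ncbi_101796474 (-0.22 to 0.03), each turned by HB-4, the last also by LB-4. The smallest adjusted p of a member over all settings was 0.725. No paired analysis was made, because the labels pair no HB sample with an LB sample. The MYH4 model ncbi_113841271 rests on 0 to 37 counts per library, and the splitting of reads between similar models could not be measured from counts per model.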

Other observations

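Outside the list, 4 further models carry the symbol MYH1B. The model ncbi_101802071, of 1978 bases, lies between ncbi_110353953 and ncbi_101796474 in the reference assembly. It was high in HB-4 (257 FPKM) and LB-1 (220 FPKM), the highest libraries of the variable pair. The other 10 libraries had 9.49 to 28.3 FPKM of it, with HB-1 at the top of this range. HB-6 and LB-3, which were also high for the pair, lay inside this range. The models ncbi_113840658, ncbi_113840831 and ncbi_113840832 had 52.8, 52.0 and 32.4 FPKM in HB-4 and at most 3.37 FPKM in the other 11 libraries, as ncbi_101801969 did in the list.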
